A study of Mus musculus with 6 samples.

Results

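Of the genes measured in the mouse heart libraries, 7 were followed here: *Cxcl9*, *Cxcl10*, *Ccl5*, *Ccl8*, *Cxcl13* and *Ccl19*, which encode chemokines that attract T, B or NK cells, and *Cxcr3*, the receptor of *Cxcl9* and *Cxcl10*. They were matched by symbol and all 7 were found among 24346 genes. The 7 genes were selected on their levels in the same libraries, namely on high values on the NASH diet and low values with pemafibrate, so their differences between the groups are given as a description and carry no test. Heart RNA of C57BL/6J male mice was sequenced with 2 libraries in each of 3 groups, 6 in all. Chow (C group) was compared with a NASH diet rich in fat, cholesterol, sucrose and bile acid (N group) and with that diet plus pemafibrate at 0.1 mg/kg (NP group), a selective modulator of the nuclear receptor PPARα, and no group received pemafibrate on chow. The comparisons are written N against C, NP against N and NP against C, and a difference is positive where the group named first is higher. Values on the NASH diet are those of the N group, and values with pemafibrate those of the NP group. The labels give 3 weeks of feeding while the methods of the study give a longer period, and the tissue is labelled heart but the labels' extraction text mentions liver. Neither gives the age of the animals or says how many animals made up a library, so *P* values measure only the spread between these libraries, which may be technical.

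Chemokines are small secreted proteins that bind to G-protein-coupled receptors on leukocytes and direct their movement. *Cxcl9* and *Cxcl10* are induced by interferons and draw activated T cells and NK cells through *Cxcr3*, and *Ccl5* draws T cells, NK cells and monocytes. *Ccl8* belongs to the monocyte chemoattractant group. *Cxcl13* and *Ccl19* are the homeostatic chemokines of lymphoid tissue, where *Cxcl13* guides B cells through *Cxcr5* and *Ccl19* guides T cells and dendritic cells through *Ccr7*, and both can appear where lymphocytes gather in inflamed organs.

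The levels are FPKM, fragment numbers scaled by transcript length and by the depth of the library, so that they can be set side by side between genes. All 7 genes had both N libraries above both C libraries, and all 7 had both NP libraries below both N libraries. Among all 12923 genes with a mean of at least 0.5 FPKM, 22.5% lay above the C group in both N libraries, 14.7% lay below the N group in both NP libraries and 10.3% were higher in both N libraries than in all 4 others. The set was chosen for this pattern, so nothing is read from these counts. The 6 ligands together reached 6.32 and 7.18 FPKM on chow, 67.1 and 96.1 FPKM on the NASH diet and 8.76 and 10.8 FPKM with pemafibrate. Fewer cells of a type and less RNA per cell cannot be told apart in such bulk samples.

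**Figure D1:**
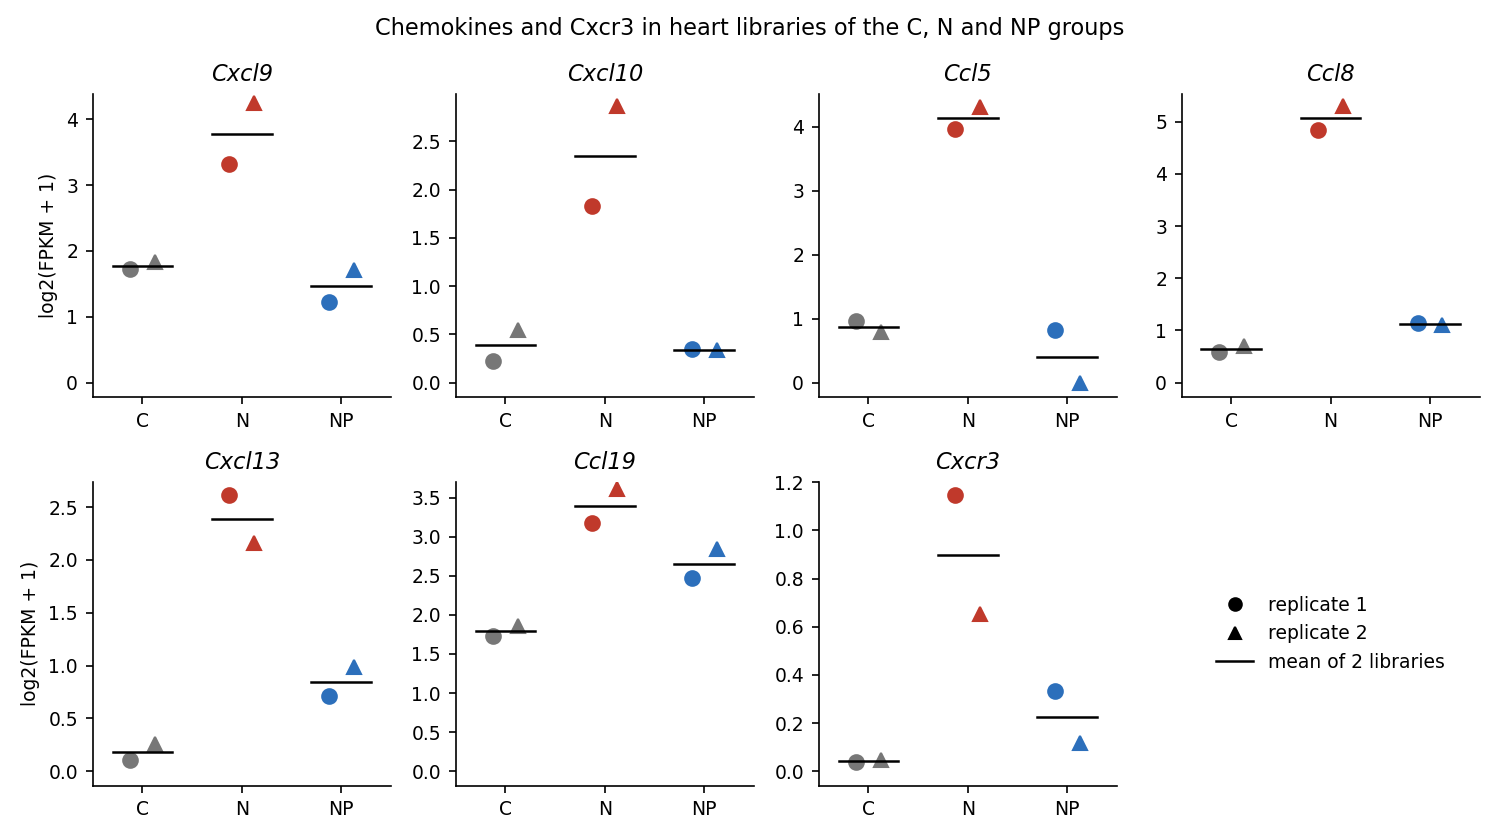
Each panel plots 1 gene on the log2(FPKM + 1) scale in the C, N and NP groups, with a circle for replicate 1, a triangle for replicate 2 and a bar for the mean of both. In all 7 panels the N libraries sit above the other 4, and in the *Ccl8*, *Cxcl13*, *Ccl19* and *Cxcr3* panels the NP libraries also sit above the C libraries.

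The depth of the libraries bears on these values. Estimated from the FPKM steps of 3212 genes with 1 transcript, it was 26300000 and 21700000 reads on chow and between 8240000 and 8800000 reads in the N and NP libraries. Converted to reads, 11 of the 42 values of the set lay at or under 3 reads, of which 3 were on chow and 8 with pemafibrate. Each NP library held 4 such values, for *Cxcl10*, *Ccl5*, *Ccl8* and *Cxcr3*. No value of the N libraries was that low. For a gene this close to the floor no fold is given, and the lower depth of the NP libraries makes 1 read worth more FPKM there than in the C group. These estimates cover counting error only.

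**Figure D2:**
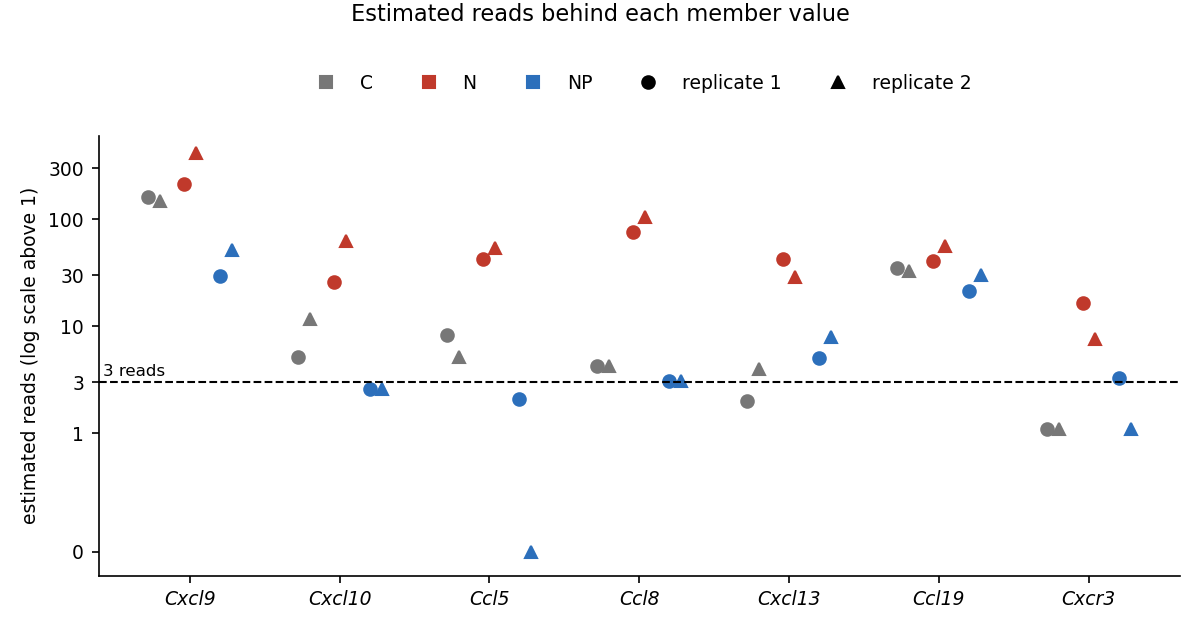
The estimated number of reads behind each value is plotted for the 7 genes, on an axis that is logarithmic above 1 and runs linearly to 0 below it, with the C, N and NP groups in grey, red and blue and a dashed line at 3 reads. All N libraries lie above the line, whereas *Cxcl10*, *Ccl5*, *Ccl8* and *Cxcr3* lie at, near or below it with pemafibrate (*Ccl5* at 0 in replicate 2) and *Cxcr3* at 1 read on chow.

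*Cxcl9* and *Cxcl10*, the ligands of *Cxcr3*, lie close to each other on chromosome 5 of mm10, the former from 92321331 to 92328079 and the latter from 92346638 to 92348889, both on the minus strand. *Cxcl9* had an FPKM of 2.30 and 2.55 on chow, 9.01 and 17.9 on the NASH diet and 1.34 and 2.26 with pemafibrate. Its NP libraries lay below both C libraries, and it was the member with the most reads, between 30 and 419 in a library. The N mean of 13.5 ± 6.28 FPKM was 5.55 times the C mean of 2.43 ± 0.179 and 7.47 times the NP mean of 1.80 ± 0.648 (SD, n = 2). On the log2(FPKM + 1) scale, where small values are compressed, the difference was 2.01 for N against C and -2.32 for NP against N.

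*Cxcl10* had an FPKM of 0.170 and 0.465 on chow, 2.55 and 6.28 on the NASH diet and 0.272 and 0.263 with pemafibrate. The C and NP groups overlapped, and the NP values stood for about 3 reads each. The N mean of 4.41 ± 2.64 FPKM was 13.9 times the C mean of 0.318 ± 0.209 (SD, n = 2), with log2 differences of 1.96 for N against C and -2.004 for NP against N. The SD in the N group was large for both *Cxcl9* and *Cxcl10* because replicate 2 exceeded replicate 1 by 0.92 and 1.04 on the log2 scale, the widest gaps between the N libraries among the 7 genes. *Cxcl10* shares 133 exonic bases with *Art3* on the opposite strand, and the sources used here do not state whether strand was used in counting. *Art3* had an FPKM of 231 and 258 on chow, 193 and 147 on the NASH diet and 206 and 187 with pemafibrate, and its differences did not pass the test (limma adjusted *P* = 0.213 for N against C and 0.904 for NP against N).

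The bases upstream of the annotated start were examined for the 6 members that the RefSeq promoter table (GRCm38.p6, the same build as mm10) holds, since these genes move together and interferon-induced genes often carry short binding motifs there. *Ccl5* has no entry. Within 250 bases before the start, on both strands, the interferon-stimulated response element core GAAANNGAA was found in 3 of 6 members, namely *Cxcl9*, *Cxcl10* and *Ccl19*, against 7.16% of 27025 promoters. The gamma-activated site TTCNNNGAA was found in 0 of 6, against 7.18% of promoters, and the kappaB consensus was found in *Cxcl10* alone, against 7.01%. A match is a description of letters and not a bound site. The sequences of *Cxcl9* and *Cxcl10* are shown because they hold matches, and that of *Ccl8* because this gene reached the highest level without any, with matches in capitals. They cover chr5:92328080-92328329 (minus strand), chr5:92348890-92349139 (minus strand) and chr11:82114935-82115184 (plus strand).
Cxcl9: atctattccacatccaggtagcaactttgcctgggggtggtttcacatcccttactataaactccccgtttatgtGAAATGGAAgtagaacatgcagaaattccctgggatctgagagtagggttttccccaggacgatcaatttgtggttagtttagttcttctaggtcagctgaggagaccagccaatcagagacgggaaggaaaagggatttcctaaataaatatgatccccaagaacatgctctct
Cxcl10: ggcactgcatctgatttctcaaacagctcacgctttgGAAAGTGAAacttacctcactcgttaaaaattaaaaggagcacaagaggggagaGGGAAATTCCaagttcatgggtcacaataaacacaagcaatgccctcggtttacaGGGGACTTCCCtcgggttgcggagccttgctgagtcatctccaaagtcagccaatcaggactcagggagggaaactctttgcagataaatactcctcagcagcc
Ccl8: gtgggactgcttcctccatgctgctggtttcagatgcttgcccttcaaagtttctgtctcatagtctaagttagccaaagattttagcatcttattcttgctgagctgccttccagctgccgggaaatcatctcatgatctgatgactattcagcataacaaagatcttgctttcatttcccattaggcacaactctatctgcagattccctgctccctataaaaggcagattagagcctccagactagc
In *Cxcl9* the match GAAATGGAA runs from -175 to -167 counted from the start. In *Cxcl10* the match GAAAGTGAA runs from -213 to -205, and the kappaB matches run from -159 to -150, from -104 to -95 and from -103 to -94, the last pair overlapping. *Ccl19* has the same letters GAAAGTGAA from -208 to -200.

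*Ccl8*, on chromosome 11 from 82115185 to 82116799 on the plus strand, showed the widest range. Its FPKM was 0.509 and 0.618 on chow, 27.8 and 38.5 on the NASH diet and 1.22 and 1.16 with pemafibrate. It went from the fourth of the 7 genes by level in the C group to the first in the N group, where both its libraries lay above every other member. The N mean of 33.1 ± 7.59 FPKM was 58.8 times the C mean of 0.563 ± 0.0769 (SD, n = 2), a ratio that rests on about 4 reads in each C library. The log2 differences were 4.43 for N against C, -3.94 for NP against N and 0.49 for NP against C. Both NP libraries lay above both C libraries, at about 3 reads against 4.

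*Ccl5*, on the same chromosome from 83525778 to 83530518 on the minus strand, had an FPKM of 0.953 and 0.723 on chow, 14.6 and 18.8 on the NASH diet, and 0.761 and 0 with pemafibrate. The N libraries held about 43 and 54 reads, the NP libraries 2 and 0 reads. The value of NP replicate 1 lay within the range of the C group, which held 8 and 5 reads, and *Ccl5* was not detectable in NP replicate 2 at this depth, where 0 reads allow up to 3. The N mean of 16.7 ± 2.94 FPKM was 19.9 times the C mean of 0.838 ± 0.163 (SD, n = 2). The log2 differences were 3.26 for N against C and -3.73 for NP against N.

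The homeostatic chemokines had NP levels between those of the other groups. The same held for *Ccl8* and *Cxcr3*, whose NP values lay at or under 3 reads. *Ccl19*, on chromosome 4 from 42754525 to 42756365 on the minus strand, had an FPKM of 2.31 and 2.63 on chow, 8.03 and 11.2 on the NASH diet and 4.53 and 6.18 with pemafibrate. The 3 groups did not overlap, and the NP group lay between the other 2. All values rested on 21 to 56 reads, so *Ccl19* and *Cxcl9* are the members whose NP levels stand clear of the read floor in both libraries by the widest margin. The N mean of 9.60 ± 2.22 FPKM was 3.89 times, and the NP mean of 5.35 ± 1.17 was 2.17 times, the C mean of 2.47 ± 0.222 (SD, n = 2). The excess of the NP mean over the C mean was thus 40.4% of that of the N mean. The log2 differences were 1.60 for N against C, -0.73 for NP against N and 0.86 for NP against C.

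*Cxcl13*, on chromosome 5 from 95956939 to 95961068 on the plus strand, had an FPKM of 0.0796 and 0.193 on chow, 5.12 and 3.48 on the NASH diet and 0.636 and 0.982 with pemafibrate. Its groups did not overlap either, and the NP group again lay in between, at about 5 and 8 reads against 2 and 4 on chow. The mean in the N group was 4.30 ± 1.16 FPKM, 5.31 times the 0.809 ± 0.245 of the NP group (SD, n = 2), and the excess of the NP mean over the C mean was 16.2% of that of the N mean. The log2 differences were 2.205 for N against C, -1.54 for NP against N and 0.67 for NP against C. The same share was 1.92% for *Ccl8* and 16.4% for *Cxcr3*, both at or under 3 reads in the NP libraries. The NP means of *Cxcl9*, *Cxcl10* and *Ccl5* lay below their C means. For *Cxcl10* and *Ccl5* the NP and C groups overlapped, and the NP values lay at or under 3 reads.

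*Cxcr3*, on chromosome X from 101731535 to 101734147 on the minus strand, had the lowest mean of the members in every group, although in NP replicate 2 *Ccl5*, listed at 0, lay below it. Its FPKM was 0.0270 and 0.0328 on chow, 1.21 and 0.571 on the NASH diet and 0.259 and 0.0836 with pemafibrate. These values stood for about 1 read in each C library, 16 and 8 reads on the NASH diet and 3 and 1 reads with pemafibrate. The NP and C groups were both at the floor and no ratio is given for them. Its mean over the 6 libraries was 0.364 FPKM, under the filter of 0.5, so that 6 of the 7 members passed the filter used for the tests of other genes. The log2 differences of *Cxcr3* were 0.86 for N against C and -0.67 for NP against N.

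The order of the levels differed between the groups. In the C group *Ccl19* and *Cxcl9* led without a gap between them, followed by *Ccl5* and *Ccl8*, while *Cxcl10* and *Cxcl13* overlapped. In the N group *Ccl8* led, *Ccl5*, *Cxcl9* and *Ccl19* followed with no neighbours that differed beyond their spread, and *Cxcl10* and *Cxcl13* again overlapped. In the NP group *Ccl19* led, followed by *Cxcl9* and *Ccl8*, each clear of the next, and *Cxcl13*, *Ccl5* and *Cxcl10* overlapped in turn. *Cxcr3* was last by its mean in all 3 groups and clear of all others in the C and N groups, whereas in the NP group the values of *Ccl5* spanned it and *Cxcl10* lay next to it, all at or under 3 reads. Both NP libraries lay above both C libraries in 4 of 7 members, *Ccl8*, *Cxcl13*, *Ccl19* and *Cxcr3*. The share was 19.5% among the 12923 genes past the filter, which *Cxcr3* did not pass. *Ccl8* and *Cxcr3* lay at or under 3 reads in the NP libraries, where 1 read is worth more FPKM than on chow. Nothing is read from this count. Within the N group, replicate 2 was the higher in 5 of 7 members and replicate 1 in *Cxcl13* and *Cxcr3*. Whether the N libraries differed by a shift common to the set was not tested.

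The median log2 difference of the 7 members was 2.01 for N against C, -2.004 for NP against N and 0.18 for NP against C, beside -0.03, 0.03 and -0.01 for all genes tested. With a pseudocount of 0.1 in place of 1 the members' medians were 3.39, -2.79 and 0.96. The first pair of comparisons shares the N libraries, which enter with opposite signs. In limma's test over all genes, with Benjamini-Hochberg adjustment and a threshold of 0.05, 191 genes (1.48%) were higher and 9 (0.0696%) lower for N against C. For NP against N 179 genes (1.39%) were lower and 0 (0%) higher, with 285 higher at an unadjusted *P* value under 0.05. For NP against C 5 genes (0.0387%) were higher and 0 (0%) lower, with 540 lower at an unadjusted *P* value under 0.05. For N against C the 200 calls became 183 without C replicate 1, of which 88 were higher and 95 lower, 49 without C replicate 2, 125 without N replicate 1 and 82 without N replicate 2, and for NP against N the 179 calls became 67 to 108 whichever library was left out. For NP against C the 5 calls became 101 without C replicate 1 (10 higher and 91 lower), 12 without C replicate 2 (5 higher and 7 lower) and 14 without NP replicate 1 (12 higher and 2 lower), so that most calls were lower when either C library was left out.

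The rest of the chemokine system comprised 58 other ligand and receptor genes, of which 28 passed the filter and 7 were listed at 0 in every library. For N against C 1 of the 28 rose, against 1.48% of all genes, and for NP against N 4 fell, against 1.39%. The medians were 0.50 and -0.62 on the log2 scale, beside 2.01 and -2.004 for the 7 members. At an unadjusted *P* value under 0.05, 11 of the 28 were higher and 3 lower for N against C, and 14 were lower and 2 higher for NP against N. Of all 12923 genes, 1065 were higher and 873 lower at that level for N against C, and 754 were lower and 285 higher for NP against N. Without any 1 library of the C or NP groups 0 passed for N against C, and for NP against N 2 passed without N replicate 2 and 0 without any other library (limma, adjusted *P*).

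*Xcl1*, a chemokine made by NK and activated T cells, was the gene that rose. Its FPKM was 0.394 and 0.159 on chow, 3.92 and 2.33 on the NASH diet and 0.419 and 0.399 with pemafibrate, or about 3, 1, 11, 7, 1 and 1 reads. *Xcl1* passed the filter through the N group, with a mean of 3.13 FPKM there against 0.276 on chow and 0.409 with pemafibrate. Its calls, and their part in the counts above, are therefore no support for the list. The log2 difference was 1.67 (SE 0.22, limma adjusted *P* = 0.0285) for N against C and -1.52 (SE 0.22, limma adjusted *P* = 0.0402) for NP against N. Over 15 alternative settings the former call was kept in 8, with adjusted *P* values between 0.0157 and 0.203, and the latter in 5, with 0.0243 to 0.217. Both calls were lost when either C library, either NP library or N replicate 1 was left out.

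Among the other chemokine receptors tested, *Ccr2*, which monocytes and some T cells carry, fell in the NP group. Its FPKM was 1.29 and 1.15 on chow, 3.51 and 2.16 on the NASH diet and 0.357 and 0.312 with pemafibrate. The log2 difference for NP against N was -1.501 (SE 0.20, limma adjusted *P* = 0.0291), kept in 8 of 15 alternatives with adjusted *P* values up to 0.168 and lost when any library except N replicate 2 was left out, whereas that of 0.77 for N against C did not pass (limma adjusted *P* = 0.155). *Ccr1* did not pass in either comparison (0.48 and -0.81, limma adjusted *P* = 0.333 and 0.201).

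*Ccr7* and *Cxcr5*, the receptors of *Ccl19* and *Cxcl13*, lay under the filter. *Ccr7* had an FPKM of 0.0857 and 0.0803 on chow, 0.396 and 0.466 on the NASH diet and 0.141 and 0.205 with pemafibrate, and *Cxcr5* reached at most 0.333. Both rested on 1 to 9 reads a library. On the NASH diet they lay below their ligands in both libraries, whereas on chow the range of *Cxcr5*, 0.0572 to 0.126 FPKM, overlapped that of *Cxcl13*. *Ccr3* and *Ackr1* were also too low to test, and the decoy receptors *Ackr2* and *Ackr4*, which remove chemokines from the tissue, had differences of 0.37 and 0.02 for N against C (limma adjusted *P* = 0.434 and 0.987).

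Other ligands of the same receptors were read beside the members. *Ccl21a*, which like *Ccl19* acts on *Ccr7* and has near-identical copies that make its value uncertain, had an FPKM of 22.4 and 21.5 on chow, 18.7 and 12.5 on the NASH diet and 14.8 and 13.3 with pemafibrate. Its differences of -0.49 and -0.12 did not pass (limma adjusted *P* = 0.308 and 0.988). *Cxcl11*, the remaining interferon-induced ligand of *Cxcr3*, was listed at 0 in 4 libraries and held about 1 read in the others, and *Ccl3* and *Ccl4*, further CC chemokines, held between 0 and 6 reads. *Ccl6* and *Ccl9*, made mainly by myeloid cells, fell for NP against N (-1.32 and -0.74 on the log2 scale, limma adjusted *P* = 0.0340 and 0.0465), calls kept in 6 and 3 of 15 alternatives and lost whichever library was left out, with adjusted *P* values up to 0.156 and 0.206. *Ccl9* was named after its values were seen.

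**Figure D3:**
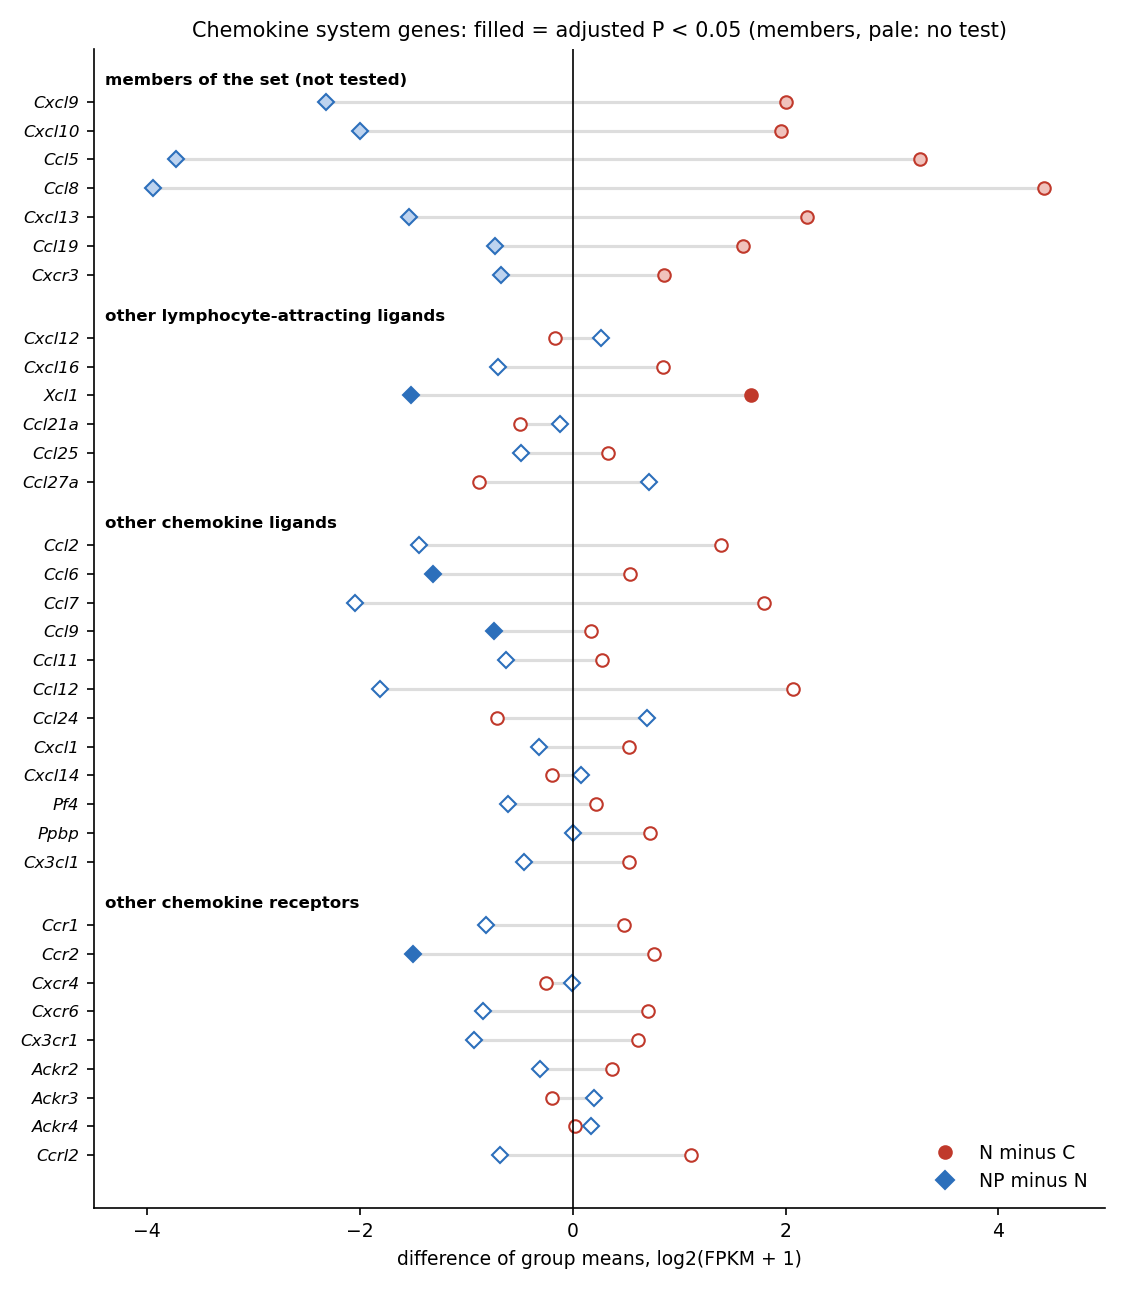
Differences of the group means on the log2(FPKM + 1) scale are plotted for the 7 members and for other chemokine ligands and receptors tested, with circles for N minus C and diamonds for NP minus N. Dark filled symbols passed limma's adjusted threshold, open ones did not, and the pale symbols of the members carry no test. *Xcl1* is the one filled circle, and *Xcl1*, *Ccl6*, *Ccl9* and *Ccr2* are the filled diamonds.

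The factors known to induce these chemokines were read in the same libraries. The gene of interferon gamma, *Ifng*, was listed at 0 in 5 libraries and held 1 read in N replicate 2, and *Tnf* and *Lta* lay under the filter. Of 22 inducer and signalling genes tested, 6 rose for N against C, beside 1.48% of all genes, and 6 fell for NP against N, beside 1.39%. In either comparison, which share the N libraries, they included *Stat2*, *Irf1*, *Irf7*, *Irf8* and *Irf9*. *Irf1*, which acts on the *Cxcl9* and *Cxcl10* genes, differed by 1.55 and -1.54 (limma adjusted *P* = 0.0219 and 0.0235), and both calls were lost without C replicate 1, C replicate 2 or N replicate 2, and that of NP against N also without either NP library, with adjusted *P* values up to 0.197 and 0.158. *Irf9* kept its calls in 14 and 15 of 15 alternatives, *Irf7* in 14 and 12, *Irf8* in 12 and 9 and *Stat2* in 8 and 7. *Ltb* and *Ltbr*, a ligand and the receptor of the lymphotoxin pathway that maintains *Cxcl13* and *Ccl19* in lymphoid tissue, had differences of 0.68 and 0.04 for N against C (limma adjusted *P* = 0.167 and 0.933).

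Of 15 genes of leukocyte adhesion and migration tested, 6 rose for N against C, namely *Dock2*, *Rac2*, *Itgal*, *Itgb7*, *Selplg* and *Coro1a*, with differences from 0.94 to 1.63 on the log2 scale, against 1.48% of all genes. For NP against N 5 of these fell, by 1.11 to 1.76, against 1.39% of all genes, while *Dock2* differed by -0.83 and did not pass (limma adjusted *P* = 0.0730). *Itgal* and *Itgb7* passed the filter through the N group, with means of 2.45 and 1.96 FPKM there. Their means were 0.348 and 0.285 FPKM on chow and 0.473 and 0.363 with pemafibrate, so their calls are no support for the list. Each of these 6 genes lost its call for N against C when C replicate 2 or N replicate 1 was left out, with adjusted *P* values up to 0.246. For NP against N the calls were kept in 5 of 14 alternatives for *Itgb7* and, of 15, in 7 for *Rac2*, 8 for *Itgal*, 9 for *Selplg* and 11 for *Coro1a*, which lost its call without either N or either NP library, and the adjusted *P* values reached 0.1997.

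The profile most like the mean of the 7 members, by Pearson's r of log2(FPKM + 1) over 6 libraries, was sought among 733 tested genes with an SD of at least 0.5. It was found in *A130077B15Rik* (r = 0.9985), *Vmn1r58* and *Ube2l6* (r = 0.9981 each), *Ifit3b* (r = 0.9965), *Irgm1* (r = 0.9964), *Ms4a4b* (r = 0.9960), *Tnfsf10* (r = 0.9953) and *Serpina3g* (r = 0.9945). The N libraries stand apart from the other 4, and r mostly measures that gap, which 136 of the 733 genes shared with r at or above 0.95. For single members the nearest genes were *Casp12* for *Cxcl9* (r = 0.9964), *Apol9a* for *Cxcl10* (r = 0.9943), *Neurl3* for *Ccl5* (r = 0.9985), *A130077B15Rik* for *Ccl8* (r = 0.9972), *Ifitm3* for *Cxcl13* (r = 0.9848), *Nr4a3* for *Ccl19* (r = 0.9678) and *C4b* for *Cxcr3* (r = 0.9914). *Nr4a3* had an FPKM of 2.88 and 2.44 on chow, 10.6 and 10.6 on the NASH diet and 4.47 and 5.77 with pemafibrate. It was picked for its likeness to *Ccl19* in these libraries, so its intermediate NP level follows from that choice.

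Markers of the cells that these chemokines attract moved with them. NK cell markers summed to 0.795 and 1.24 FPKM on chow, 9.34 and 14.2 on the NASH diet and 0.774 and 0.670 with pemafibrate, and B cell markers to 1.73 and 1.42, 6.86 and 6.998, and 1.996 and 2.35. T cell markers went from 6.17 and 5.602 FPKM on chow to 10.4 and 10.51 on the NASH diet and 5.26 and 4.85 with pemafibrate. Of 34 lymphocyte markers, 29 lay above the C group in both N libraries, and 26 lay below the N group in both NP libraries. The shares of 22.5% and 14.7% given above hold for genes past the filter only, so these counts have no matching share. Most of these markers lay under the filter, and nothing is read from the counts. No marker of the 34 was at 0 in every library, and 8 passed the filter. *Nkg7*, a granule protein gene of NK and cytotoxic T cells, differed by 1.97 and -2.03 (limma adjusted *P* = 0.00515 and 0.00465), and *Gzmb*, which encodes a granule protease, by 1.52 and -1.46 (limma adjusted *P* = 0.0381 and 0.0473). Both passed the filter through the N group, with 18 to 28 reads a library there against 0 to 5 in the C and NP libraries, so their calls are no support for the list. The calls of *Nkg7* were kept in 14 of 15 alternatives, all but a pseudocount of 0.1, and those of *Gzmb* in 4 and 2 of 14, with adjusted *P* values up to 0.232, none of them holding when any library was left out. The part of these cells in the levels of the chemokines was not tested.

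Other contents of the libraries also differed. The 12 macrophage markers summed to 226 to 260 FPKM on chow, 401 to 538 on the NASH diet and 187 to 220 with pemafibrate, and by limma's test 4 of 12 rose for N against C, against 1.48% of all genes, and 6 fell for NP against N, against 1.39%. Atrial markers summed to 176 to 308 FPKM in the C group, but 3703 to 6240 on the NASH diet with or without pemafibrate. All 6 rose for N against C by limma's test, against 1.48% of all genes. The macrophage and atrial calls were not followed over the alternative settings or without single libraries. Among them, *Cd68* passed narrowly for NP against N (limma adjusted *P* = 0.0499). Adipocyte markers summed to 2.09 and 9.38 FPKM on chow, 190 and 104 on the NASH diet and 16.0 and 87.4 with pemafibrate. Hepatocyte markers summed to 28.9 and 418 FPKM on chow, 1.15 and 2.04 on the NASH diet and 5.51 and 2.63 with pemafibrate. Both C libraries thus lay above all N and NP libraries, C replicate 2 by the most. The part of these contents in the levels of the members was not tested. Of 7 markers of lymph node stroma and high endothelium, *Glycam1* and *Madcam1* were at 0 in every library, *Chst4* had an FPKM of 0.486 and 0.0256 on chow, 2.53 and 1.08 on the NASH diet and 1.75 and 1.57 with pemafibrate, and the others, *Ccl21a*, *Mfge8*, *Pdpn* and *Cxcl12*, lay between 1.55 and 94.6 FPKM. Of 8 thymus markers, *Rag1*, *Rag2*, *Dntt*, *Foxn1* and *Aire* were at 0 in every library, *Ptcra* and *Psmb11* reached at most 0.109 FPKM, and *Cd1d1* lay between 1.11 and 3.08 FPKM. Heart muscle markers summed to between 49839 and 72126 FPKM in a library.

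**Figure D4:**
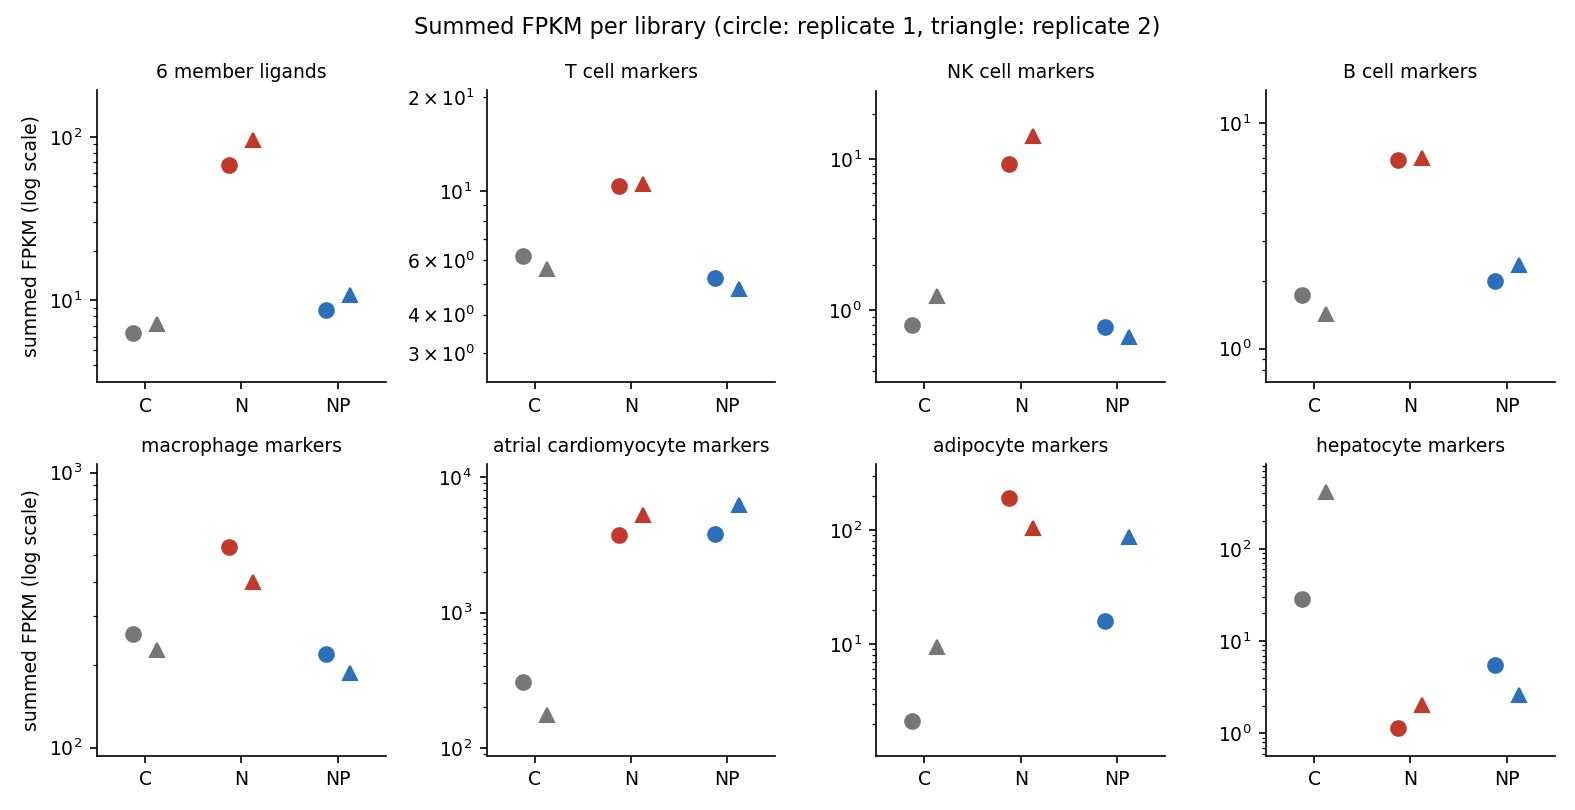
Each panel plots the summed FPKM of a list of genes per library on a log scale, with a circle for replicate 1 and a triangle for replicate 2, for the 6 member ligands and for markers of T, NK and B cells, macrophages, atrial cardiomyocytes, adipocytes and hepatocytes. The ligand, NK cell and B cell sums are high on the NASH diet alone, whereas the atrial sum is high on the NASH diet with and without pemafibrate.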

How the data were processed

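Heart RNA of the C, N and NP groups was analysed in 6 libraries, 2 for each of the groups that the labels define by diet and dose. The authors prepared libraries with a stranded mRNA kit, mapped the reads to mm10 and deposited FPKM per gene. The submitters' processing notes name TopHat2 2.0.13, Bowtie2 2.2.3, SAMtools 0.1.19 and Cufflinks 2.2.1. Whether strand was used in counting is not given in the sources used here. The N and NP libraries numbered 1 carry file names of one kind and those numbered 2 of another. Counts were not used here.

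The deposited values were used as log2(FPKM + 1), and the 12923 genes with a mean of at least 0.5 FPKM were tested. A model with 3 groups and 3 residual degrees of freedom was fitted to each gene with limma 3.58.1 in R 4.3.3, with a variance trend and Benjamini-Hochberg adjustment over all genes tested. The test was checked on simulated data. No permutation test was run, since the smallest exact *P* value with 2 libraries a group is 0.333. Depth was estimated from the FPKM steps of genes with 1 transcript in GENCODE M21, after subtracting 200 bases from its length, and 72.0% to 77.5% of values up to 5 reads lay within 0.1 of a whole read. Read estimates and plots were made in Python 3.11.15 (pandas 2.3.3, numpy 2.4.6, matplotlib 3.10.9). Positions are those of RefSeq and exon overlaps those of GENCODE M21.

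The members, the gene and marker lists and the rule for naming genes were chosen with earlier results of these data known. The rule takes in the members, their receptors and decoy receptors, other ligands of these receptors, *Ifng*, *Irf1*, *Tnf*, *Lta*, *Ltb* and *Ltbr*, up to 12 other genes of the family and pathway lists that passed, and the genes with the most similar profile. *Ccl9*, *Art3* and the marker genes were named outside the part of the rule on calls, after their values were seen. Another pseudocount, other filters, scalings and designs were run, and fits without each library. Of the marker lists, *Ly6g* and *Fdcsp* were not matched. Some genes of the rule are not reported here.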

Additional observations from a re-analysis of the deposited data

How the results depend on the processing

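All 7 members kept their direction for N against C and for NP against N in every alternative run for them. They were chosen for this pattern, with both N libraries above every C and NP library. Neither another pseudocount nor leaving out a library could thus have reversed it, so nothing is read from this. Their median differences, 2.01, -2.004 and 0.18, became 3.39, -2.79 and 0.96 with a pseudocount of 0.1, and ranged from 1.55 to 2.46, from -2.52 to -1.76 and from 0.0733 to 0.29 when a library was left out. Leaving out a C or NP library moved *Cxcl10* from -0.21 to 0.11 for NP against C. Of 42 member values, 8 instead of 11 lay at or under 3 reads with the whole transcript length.

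The 200 genes called for N against C became 309 with FPKM scaled to the same total and 49 to 183 when a library was left out. The 179 called for NP against N became 78 with 2 groups in the model and 67 to 108. The 5 for NP against C became 10 with the same total, 12 with a pseudocount of 0.1, 0 without the filter and 5 to 101. The 1 other chemokine gene called for N against C became 2 with the same total, 0 without the filter, 0 with 2 groups and 0 to 1, and the 4 for NP against N became 2 with the same total, 2 with quantile normalization, 0 without the filter, 0 with 2 groups and 0 to 2. The 2 lymphocyte markers for N against C became 4 with the same total, 5 without the filter, 1 with a mean of at least 1 FPKM, 1 with quantile normalization, 1 with 2 groups, 0 with a pseudocount of 0.1 and 1 to 2. Those for NP against N became 5 without the filter, 1 with a mean of at least 1 FPKM, 1 with quantile normalization, 1 with the same median, 1 with 2 groups, 0 with a pseudocount of 0.1 and 1 to 2. Models with fewer libraries have fewer degrees of freedom, and the lone library of a group is then assumed to vary like the other groups. For the other changes the cause was not tested. *Ackr4* turned to -0.0354 with quantile normalization for N against C, and leaving out a library gave -0.31 to 0.36 for N against C and -0.24 to 0.59 for NP against N. *Ccl21a* ranged from -0.39 to 0.15 for NP against N, and *Ltbr* from -0.0589 to 0.13 for N against C and from -0.0131 to 0.18 for NP against N. None of these passed.

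The labels do not say that a replicate number marks a shared batch, although the file names of the N and NP libraries are of one kind for replicate 1 and of another for replicate 2, so that a difference between these sets would enter the SDs and was not tested. A fit with the replicate block gave 328 genes (274 higher) for N against C, 200 for NP against N and 20 for NP against C, 2 other chemokine genes for N against C, and 1 lymphocyte marker for NP against N. Over genes, which are no independent replicates, the differences between replicates 2 and 1 correlated with Pearson's r of 0.0471 between C and N, 0.124 between C and NP and 0.458 between N and NP (Spearman 0.230, 0.263 and 0.555). The low depth of the N and NP libraries limits what can be said of members at or under 3 reads.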
